A study of Mus musculus with 2 samples.

Results

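C-type lectin receptors were examined as the genes whose symbol begins with Clec and a digit, with Cd209, or with Klr and a letter, together with Mgl2 and Ly75. These criteria found 46 of the 16263 genes listed in the expression tables, and 23 of them reached 1 FPKM (a read count divided by transcript length and library size) in at least 1 library. The cells were bone marrow-derived macrophages of SIRPα-/- mice (SIRPα-KO) and of wild type (WT) mice, both labelled C57BL/6. SIRPα restrains myeloid cells when it binds CD47 on a neighbouring cell. All cells were grown for 5 days with M-CSF and then activated for 6 h with 20 ng/ml interferon-γ and 100 ng/ml lipopolysaccharide, in the presence of mCD47.ex, so the groups share every treatment and differ by the labelled genotype. The cells of 5 mice were mixed before RNA extraction in each group, which leaves 1 library per genotype and no replicate error. The targeted allele is not described in the labels.

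C-type lectin receptors carry a domain related to calcium-dependent sugar-binding proteins and recognize glycans, lipids or proteins of microbes, dying cells and other host cells. On macrophages, receptors of the Dectin-1 and Dectin-2 groups signal through the kinase Syk, either by a motif of their own or by the adaptor chains FcRγ and DAP12, and then through the CARD9, BCL10 and MALT1 complex. Others carry inhibitory motifs that recruit phosphatases such as SHP-1, the same enzymes that SIRPα recruits. The Klr genes encode receptors best known from natural killer (NK) cells, and the mouse Clec2 genes encode ligands of some of them.

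Sirpa stood at 71.5 FPKM in SIRPα-KO and at 153.9 FPKM in WT, so its transcript remained in the library labelled as knockout. Sex-linked transcripts differed as well, with Xist at 0.91 FPKM in SIRPα-KO and 47.5 FPKM in WT, while Ddx3y was at 11.6 FPKM in SIRPα-KO and listed at 0 in WT. Genotype and the sex of the mice therefore cannot be told apart. The estimated depth was about 11150000 reads in SIRPα-KO and 11200000 in WT. All 6 macrophage markers were present in both libraries, with a summed level of 8750 FPKM in SIRPα-KO and 8782 FPKM in WT. Lyz2 made up most of each sum, at 7208 FPKM in SIRPα-KO and 7106 FPKM in WT. Csf1r, the M-CSF receptor, was the single macrophage marker past 2-fold, at 109.8 FPKM in SIRPα-KO and 248 FPKM in WT.

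Most C-type lectin receptor genes differed less than 2-fold between the libraries. Clec2i and Clec16a were higher in SIRPα-KO, Clec4a3 was lower, and 20 of the 23 genes at 1 FPKM or more were neither. A call requires at least a 2-fold difference between FPKM values raised by 1, which makes differences of weakly expressed genes look smaller than they are. Of all 10092 genes at 1 FPKM or more, 3.43% were called higher and 4.30% lower, shares that would give 0.79 higher and 0.99 lower genes among 23. The observed 2 and 1 are close to that background. At a limit of 1.5-fold the same 2 genes were higher, and Clec4a3, Clec4e, Clec5a and Ly75 were lower, 4 of 23, where 10.9% of all genes kept were higher and 10.2% lower. The median log2 ratio (SIRPα-KO over WT) was -0.10 over the 23 genes and 0.06 over all genes kept. The ratio was above 0 for 8 of the 23 genes and below 0 for 15, against 5662 above and 4421 below 0 over all genes kept. These counts include Clec2i and Clec2g, which reached 1 FPKM in SIRPα-KO alone, and Klra3, which reached it in WT alone. The signs of these ratios follow from the filter, and Clec2i is also 1 of the 2 genes called higher.

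**Figure D1:**
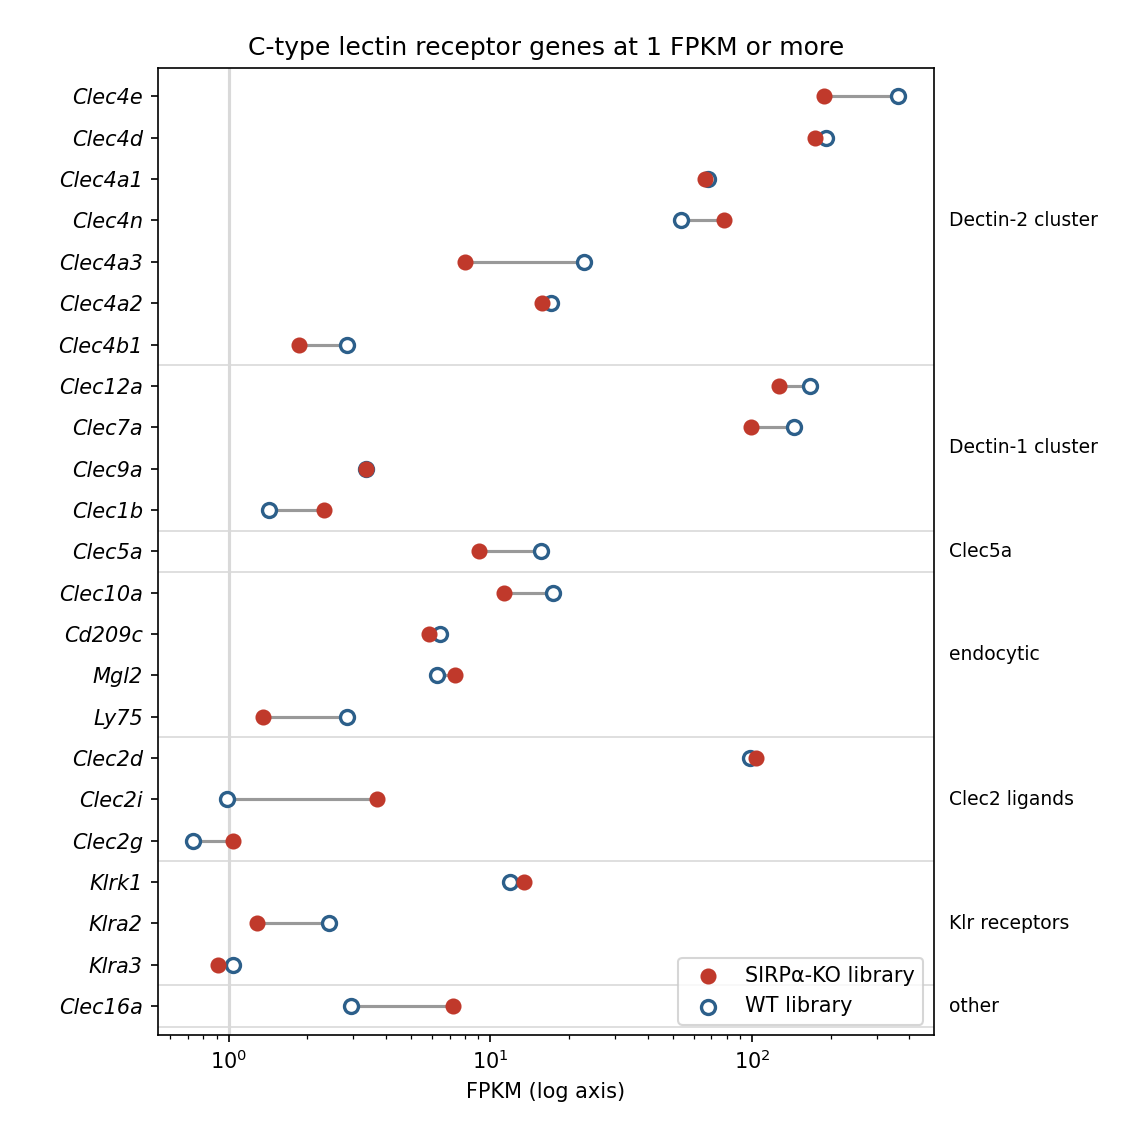
FPKM (log axis) of the 23 C-type lectin receptor genes at 1 FPKM or more, grouped by role. Filled points are the SIRPα-KO library, open points the WT library and grey lines join both values of a gene. On this axis the longest lines belong to Clec2i, Clec4a3 and Clec16a, and the 7 genes at 50 FPKM or more in both libraries lie at the right.

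The family's transcripts were concentrated in a few receptors. Their summed level was 936 FPKM in SIRPα-KO and 1209 FPKM in WT, which was 0.216% of the SIRPα-KO total and 0.272% of the WT total. The 6 most abundant genes held 82.4% of this sum in SIRPα-KO and 85.6% in WT. Without Clec4e the sums were 747 FPKM in SIRPα-KO and 846 FPKM in WT. In SIRPα-KO the order of levels was Clec4e, Clec4d, Clec12a, Clec2d, Clec7a, Clec4n and Clec4a1. In WT it began with the same 3 genes and went on with Clec7a, Clec2d, Clec4a1 and Clec4n. With 1 library per genotype the spread behind these neighbouring ranks is unknown.

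The Dectin-2 group was the most abundant, with a summed level of 534 FPKM in SIRPα-KO and 721 FPKM in WT over 9 genes. Over all genes kept, 3.43% were higher and 4.30% lower, the shares to set beside the counts of this and later groups and marker lists. Of the 7 Dectin-2 group genes at 1 FPKM or more, 0 were higher, 1 was lower and 6 were neither. The activating receptors among them did not share a direction. Clec4e encodes Mincle, a receptor for the mycobacterial cord factor and for a nuclear protein released by dead cells. Clec4e stood at 189 FPKM in SIRPα-KO and 363 FPKM in WT, a log2 ratio of -0.94 that is just short of 2-fold. With median-of-ratios or trimmed-mean scaling the ratio was -1.01 in both cases, past the limit. Clec4d, which encodes the receptor MCL that pairs with Mincle, was at 174 FPKM in SIRPα-KO and 193 FPKM in WT. The level of Clec4e was thus 1.09 times that of Clec4d in SIRPα-KO and 1.88 times in WT. Clec4n encodes Dectin-2, a receptor for fungal mannans, and its ratio had the opposite sign: it was at 78.2 FPKM in SIRPα-KO and 53.8 FPKM in WT, a log2 ratio of 0.53.

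Clec4e and Clec4d are neighbours on chromosome 6 and are transcribed towards each other from opposite strands, so the 250 bases before their transcription starts are shown together, with those of Clec7a from the other cluster. The sequences come from RefSeq (GRCm38.p6, a later build than the mm9 of the processing notes), run 5′ to 3′ towards the start of each gene, and have matches to a PU.1 motif (GAGGAA) or a C/EBP motif (TTGCNNAA), on either strand, in capitals. Clec4e lies on the minus strand with its window at chr6:123289872-123290121, Clec4d on the plus strand at chr6:123261857-123262106 and Clec7a on the minus strand at chr6:129472780-129473029.
Clec4e: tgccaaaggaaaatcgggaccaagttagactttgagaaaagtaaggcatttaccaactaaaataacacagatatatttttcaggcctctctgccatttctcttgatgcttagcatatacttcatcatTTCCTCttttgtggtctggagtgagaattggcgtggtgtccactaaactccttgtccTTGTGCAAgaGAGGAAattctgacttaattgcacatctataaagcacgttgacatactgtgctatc
Clec4d: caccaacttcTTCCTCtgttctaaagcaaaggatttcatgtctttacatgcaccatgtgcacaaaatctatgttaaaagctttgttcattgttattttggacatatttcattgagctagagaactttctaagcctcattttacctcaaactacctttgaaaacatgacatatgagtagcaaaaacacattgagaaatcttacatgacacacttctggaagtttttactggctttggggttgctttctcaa
Clec7a: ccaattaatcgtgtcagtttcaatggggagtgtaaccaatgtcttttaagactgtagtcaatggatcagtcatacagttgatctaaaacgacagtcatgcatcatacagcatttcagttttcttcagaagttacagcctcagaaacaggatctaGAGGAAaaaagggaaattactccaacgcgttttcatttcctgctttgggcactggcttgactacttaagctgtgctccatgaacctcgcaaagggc

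The Clec4e window held a C/EBP match 66 to 59 bases before the start and PU.1 matches at 123 to 118 and 56 to 51 bases, which overlap no other match. The Clec4d window held a PU.1 match at 240 to 235 bases, and the Clec7a window held 1 at 96 to 91 bases. PU.1 and C/EBP proteins are transcription factors of the myeloid lineage. Promoter sequences were found for 39 of the 46 genes, 21 of them at 1 FPKM or more. The PU.1 letters occurred in 12 of these 21 and in 21 of all 39. They occurred in 25.9% of 27025 genes with a window of that length. The C/EBP letters occurred in 7 of the 21, in 10 of the 39 and in 10.8% of all genes. The 7 were Clec4e, Clec12a, Clec16a, Klra2, Klra3, Klrk1 and Ly75. The search on both strands also covered motifs of activation-induced factors. The AP-1 letters (TGANTCA) were in 2 of the 21, Clec12a and Clec2g, in 7 of the 39 and in 7.8% of all genes. The letters of the interferon-γ activated site (TTCNNNGAA) were in 2 of the 21 and in 8.1% of all genes. These 2, Clec4a2 and Klra2, were also the only ones among the 39. These matches are letters in a window and were not tested for binding.

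The remaining Dectin-2 group genes belong to the DCIR and DCAR subgroups. Clec4a3, one of the DCIR-type receptors, was at 8.02 FPKM in SIRPα-KO and 22.7 FPKM in WT, a log2 ratio of -1.40. It was the only one of the 23 genes called lower, and its values stood for about 110 reads in SIRPα-KO and 314 in WT. It shared no 50-base word (0%) with any other gene of the tables. Clec4a2, which encodes DCIR with an inhibitory motif, was at 15.8 FPKM in SIRPα-KO and 17.05 FPKM in WT. Clec4a1, the most abundant DCIR-type gene, was at 66.3 FPKM in SIRPα-KO and 67.7 FPKM in WT. These related genes of the same cluster thus had ratios close to 0 while Clec4a3 did not. Clec4b1, which encodes the activating receptor DCAR, was at 1.86 FPKM in SIRPα-KO and 2.84 FPKM in WT, or about 15 and 23 reads. Clec4a4 and Clec4b2 were under 1 FPKM in both libraries.

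In the Dectin-1 group, 4 of 6 genes reached 1 FPKM, and 0 were called in either direction. The lectin-like gene Olr1 follows Clec7a on the chromosome but does not meet the symbol criteria, and is given with its neighbours below. Clec7a encodes Dectin-1, the receptor for fungal β-glucans that signals to Syk by its own cytoplasmic motif. Clec7a was at 98.9 FPKM in SIRPα-KO and 145 FPKM in WT, a log2 ratio of -0.55. Clec12a encodes an inhibitory receptor for uric acid crystals and was at 127 FPKM in SIRPα-KO and 167 FPKM in WT, a log2 ratio of -0.39. The abundant activating and inhibitory receptors of this group were therefore both at lower values in SIRPα-KO, each short of 2-fold. The level of Clec4n was 0.79 times that of Clec7a in SIRPα-KO and 0.37 times in WT. Clec9a, a marker of a dendritic cell subset whose product binds actin exposed by dead cells, had 3.34 FPKM in SIRPα-KO and 3.36 FPKM in WT. Clec1b encodes CLEC-2, the podoplanin receptor of platelets, and was at 2.32 FPKM in SIRPα-KO and 1.43 FPKM in WT, or about 19 and 12 reads. Markers of platelets and endothelium summed to 177 FPKM in SIRPα-KO and 58.1 FPKM in WT over 6 genes, with Pf4 at 148 FPKM in SIRPα-KO and 37.3 FPKM in WT. Pf4 was the only one of the 6 past 2-fold, and the other 5 summed to 29.1 FPKM in SIRPα-KO and 20.9 FPKM in WT, with Cdh5 and Pecam1 at lower values in SIRPα-KO. Their part in the Clec1b value was not tested. Clec1a and Clec12b were under 1 FPKM in both libraries.

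**Figure D2:**
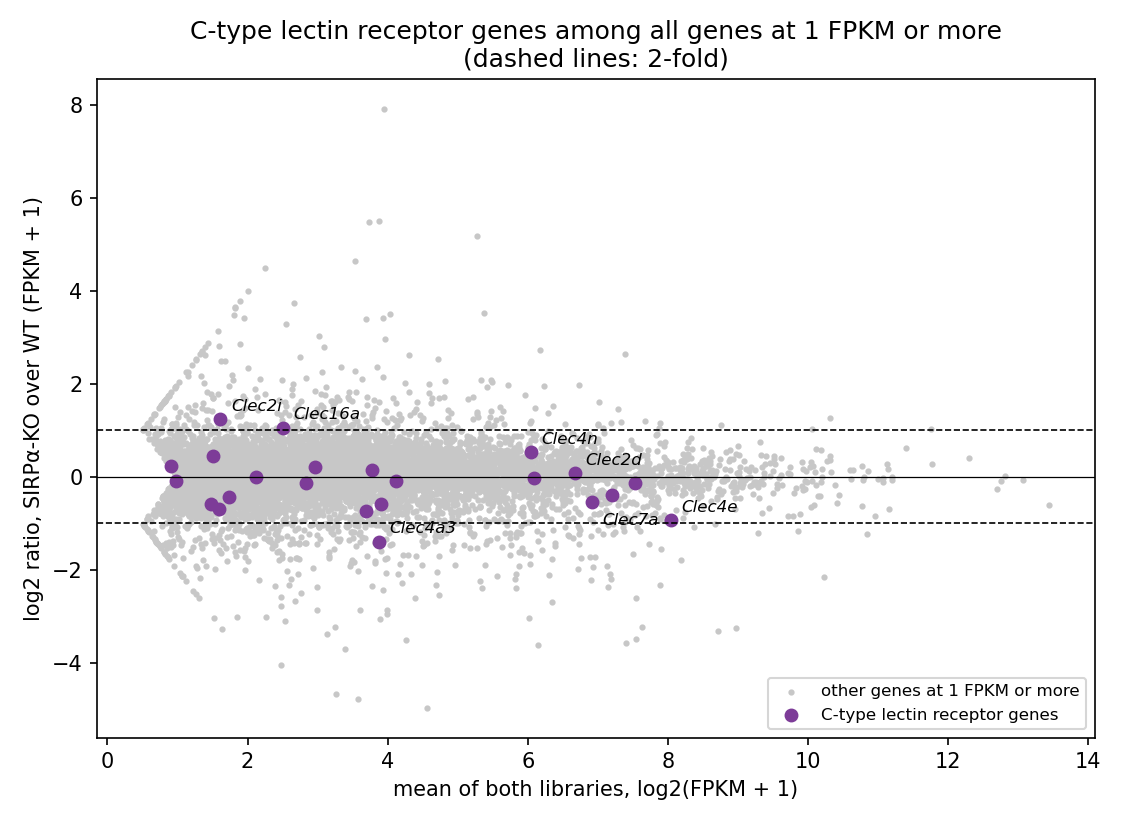
Log2 ratio of SIRPα-KO over WT (FPKM + 1) against the mean level of both libraries on the log2 scale, for all 10092 genes at 1 FPKM or more (grey) and the 23 C-type lectin receptor genes (purple). Clec2i and Clec16a lie above the upper 2-fold line and Clec4a3 below the lower one, while Clec4e lies just inside it.

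Clec5a encodes a receptor that signals through the adaptor DAP12 and is known as a receptor for dengue virus. It was at 9.07 FPKM in SIRPα-KO and 15.7 FPKM in WT, a log2 ratio of -0.73. Clec4d, Clec4e and Clec5a are also expressed by neutrophils, whose markers were counted beside them. Of 7 neutrophil markers 6 were in the tables, and 5 of these were lower in SIRPα-KO, beside 4.30% of all genes kept. The 6 markers summed to 191 FPKM in SIRPα-KO and 415 FPKM in WT, with S100a9 at 98.1 FPKM in SIRPα-KO and 202 FPKM in WT. None of the 6 was at 0, and Mpo was at 3.34 FPKM in SIRPα-KO and 2.38 FPKM in WT. The part of neutrophil transcripts in the Clec4e and Clec5a values was not tested, and fewer cells of a type cannot be told apart from less RNA per cell in bulk samples.

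Receptors that take up glycoproteins were less abundant than the Dectin-1 and Dectin-2 groups in both libraries, and 0 of the 4 at 1 FPKM or more were called. Clec10a and Mgl2 encode MGL1 and MGL2, the galactose-type lectins of macrophages and dendritic cells. Clec10a was at 11.3 FPKM in SIRPα-KO and 17.3 FPKM in WT, a log2 ratio of -0.58. Mgl2 was at 7.36 FPKM in SIRPα-KO and 6.27 FPKM in WT, a log2 ratio of 0.20. These related genes thus had ratios of opposite sign, both short of 2-fold, and Mgl2 shares 12.2% of its 50-base words with Clec10a. Ly75, the gene of the endocytic dendritic cell receptor DEC-205, had 1.36 FPKM in SIRPα-KO and 2.84 FPKM in WT, about 78 and 164 reads on a long transcript. Its log2 ratio of -0.70 became -1.01 with a pseudocount of 0.1. Cd209c, of the DC-SIGN family, was at 5.82 FPKM in SIRPα-KO and 6.44 FPKM in WT, and Cd209a, Cd209f, Cd209g and the Kupffer cell lectin Clec4f were under 1 FPKM in both. Dendritic cell markers summed to 347 FPKM in SIRPα-KO and 223 FPKM in WT over 7 genes, none of them at 0. The MHC class II gene H2-Ab1, short of 2-fold, made up most of each sum, and the other 6 summed to 44.6 FPKM in SIRPα-KO and 39.8 FPKM in WT. Of these, Ccr7 and Dpp4 were called higher and Itgax lower, while Flt3 was at 0.10 FPKM in SIRPα-KO and 0.34 FPKM in WT. Their part in the values of Clec9a, Clec10a and Ly75 was not tested.

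Of the 6 Clec2 genes 3 reached 1 FPKM, and 1 of them was called. Clec2i and Clec2g reached it through the SIRPα-KO library alone, so the signs of their ratios follow from the filter. Clec2d encodes Clr-b, a broadly expressed ligand that inhibits NK cells through an NKR-P1 receptor. It was at 104 FPKM in SIRPα-KO and 98.4 FPKM in WT, among the most abundant genes of the family in both libraries. Clec2i encodes Clr-g, a ligand of an activating NKR-P1 receptor, and was higher in SIRPα-KO, at 3.70 FPKM against 0.99 FPKM in WT, a log2 ratio of 1.24. These values stood for about 42 reads in SIRPα-KO and 11 in WT, and 4.1% of its 50-base words occur in another gene. With a pseudocount of 5 the ratio was 0.54, short of the limit. Clec2g was at 1.04 FPKM in SIRPα-KO and 0.73 FPKM in WT, and Clec2e, Clec2f and Clec2h were under 1 FPKM in both libraries.

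Of the 13 Klr genes, 3 reached 1 FPKM, and 0 were called. Klrk1 encodes NKG2D, an activating receptor for stress-induced ligands, and was at 13.4 FPKM in SIRPα-KO and 11.95 FPKM in WT. Hcst, the gene of its adaptor DAP10, was at 8.50 FPKM in SIRPα-KO and 6.09 FPKM in WT. Klra2 encodes Ly49B, a member of the Ly49 family found on myeloid cells, and had 1.28 FPKM in SIRPα-KO and 2.41 FPKM in WT, about 21 and 40 reads. Klra3 was at 0.91 FPKM in SIRPα-KO and 1.04 FPKM in WT. Klrd1, the NK receptor chain CD94, was at 0.21 FPKM in SIRPα-KO and 0.42 FPKM in WT, and Klrb1c, which encodes NK1.1, was listed at 0 in SIRPα-KO and was at 0.03 FPKM in WT. NK and T cell markers summed to 9.11 FPKM in SIRPα-KO and 6.72 FPKM in WT over the 9 of 10 that were in the tables, and Cd3d made up most of each sum. The NK receptor Ncr1 was at 0.19 FPKM in SIRPα-KO and listed at 0 in WT, as were Cd3e, Gzma and Nkg7 in WT, and Cd3g was listed at 0 in both.

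Clec16a entered by its symbol alone, since its product acts in endosomes and autophagy and is not known as a sugar-binding receptor. It was higher in SIRPα-KO, at 7.20 FPKM against 2.94 FPKM in WT, a log2 ratio of 1.06. The values stood for about 498 reads in SIRPα-KO and 204 in WT, spread over a transcript of 6201 bases. With either other scaling the ratio fell short of 2-fold; it was 0.99 with median-of-ratios and 0.998 with trimmed-mean scaling, and 0.62 with a pseudocount of 5. Clec11a, Clec18a and the remaining genes below the limit bring the number under 1 FPKM in both libraries to 23. The highest value among them was 0.67 FPKM for Klri2, which stood for about 29 reads in each library.

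Of the 46 genes 36 are on chromosome 6, where 18 of the 23 at 1 FPKM or more lie, most of them in clusters. The GRCm38 gene table was used for their order alone. Ratios changed from gene to gene along these clusters, and the largest ratios belonged to 3 genes that do not meet the symbol criteria. Olr1, 1 of the 3, and Cd69 are lectin-type genes left out by their symbols alone. C3ar1, the complement C3a receptor gene separated from the Dectin-2 group by Necap1, was at 58.4 FPKM in SIRPα-KO and 197 FPKM in WT. Olr1, which encodes the lectin-like receptor LOX-1 for oxidized low-density lipoprotein, follows Clec7a and had a log2 ratio of -4.96. BC035044, next to Clec2i, was at 15.4 FPKM in SIRPα-KO and 1.77 FPKM in WT. Cd69, between Clec2d and Clec12a, was at 572 FPKM in SIRPα-KO and 672 FPKM in WT, above each of the 46 genes.

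**Figure D3:**
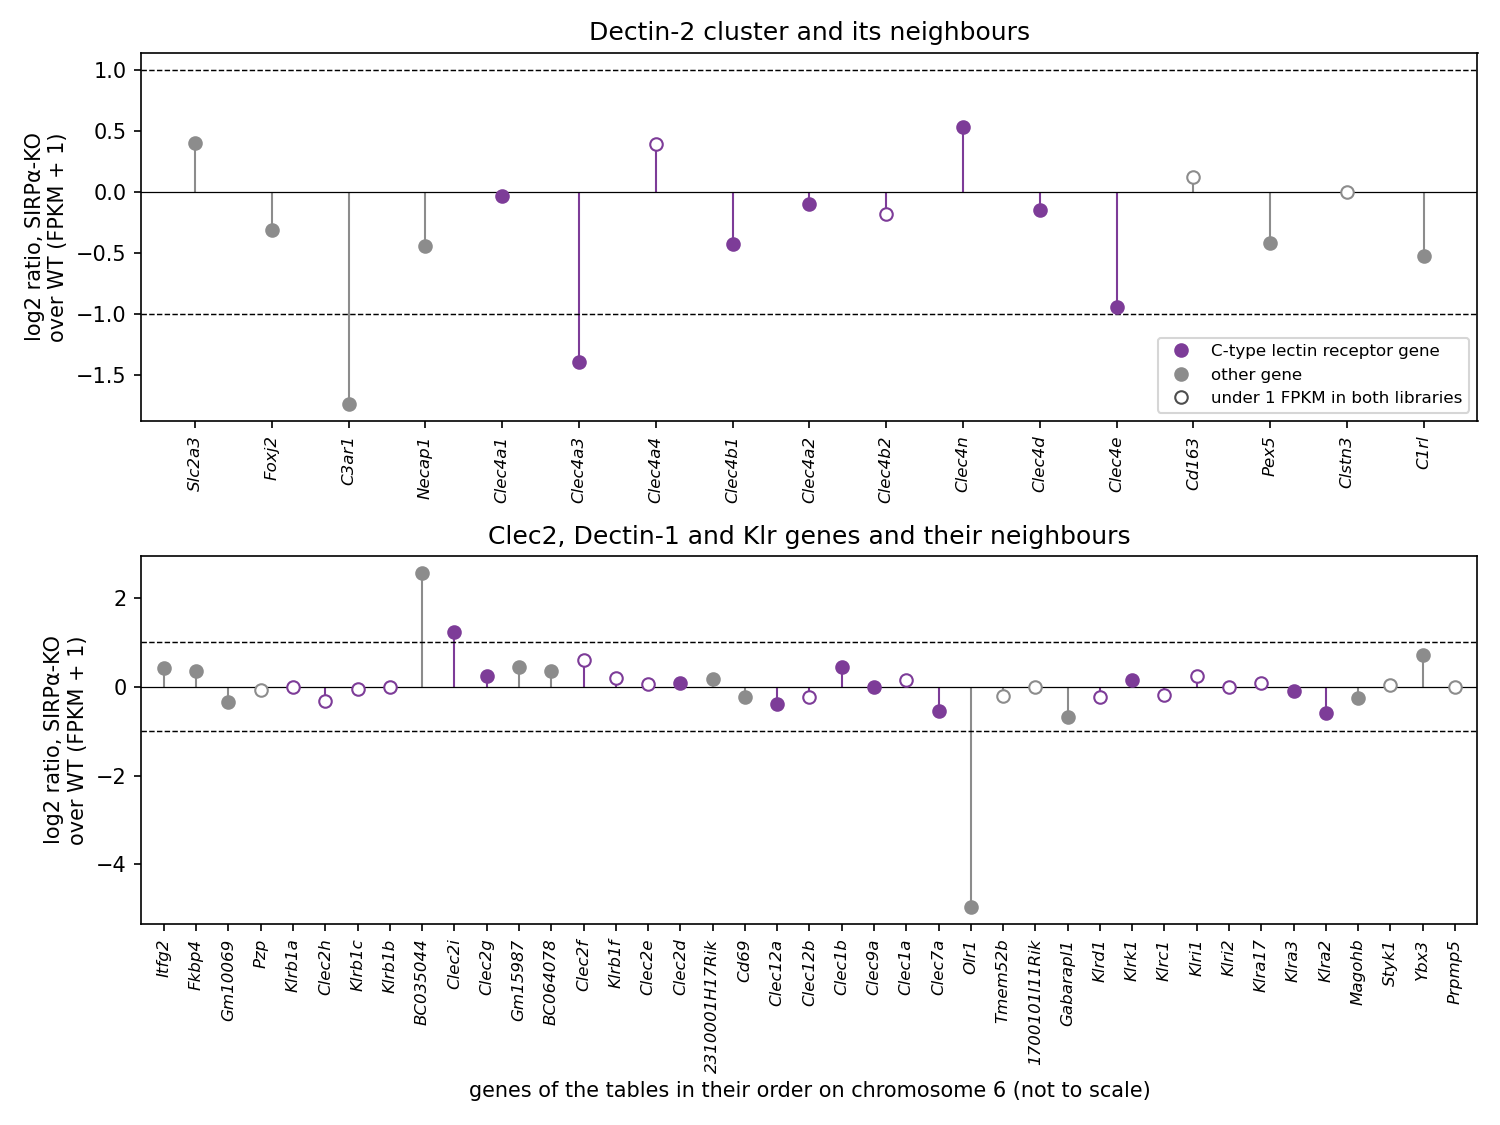
Log2 ratio of SIRPα-KO over WT (FPKM + 1) for genes of the tables in their order on chromosome 6, around the Dectin-2 group (top) and from the Clec2 genes to the Klr genes (bottom). Purple points are C-type lectin receptor genes by the symbol criteria and open points genes under 1 FPKM in both libraries. Grey points are other genes, among them the lectin-type genes Olr1 and Cd69. The largest ratios belong to the grey points C3ar1, BC035044 and Olr1.

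All 35 listed adaptors and signalling genes of these receptors reached 1 FPKM, and 1 was higher, 5 were lower and 29 were neither. Over all genes kept, 3.43% were higher and 4.30% lower. The median log2 ratio of the list was 0.03, beside 0.06 over all genes kept. The kinase gene Syk was at 109 FPKM in SIRPα-KO and 97.3 FPKM in WT, and Fcer1g, the FcRγ chain, was at 1685 FPKM in SIRPα-KO and 1520 FPKM in WT. Tyrobp, the gene of DAP12, was at 352 FPKM in SIRPα-KO and 492 FPKM in WT. Card9 was at 4.26 FPKM in SIRPα-KO and 7.21 FPKM in WT, a log2 ratio of -0.64. Its partners Bcl10 and Malt1 had log2 ratios of 0.41 and -0.25, so the genes of this complex were short of 2-fold and did not share a sign. Among exchange factors of the Vav family that act below Syk, Vav3 was higher, at 31.0 FPKM in SIRPα-KO and 6.23 FPKM in WT, while Vav1 was lower, at 40.3 FPKM in SIRPα-KO and 85.55 FPKM in WT. Also lower were the Src-family kinase Fgr, at 2.05 FPKM in SIRPα-KO and 6.95 FPKM in WT, and the ubiquitin ligase Cbl, at 7.05 FPKM in SIRPα-KO and 19.2 FPKM in WT. The phosphoinositide kinase Pik3cg was at 16.1 FPKM in SIRPα-KO and 40.1 FPKM in WT, and the lipid phosphatase Inpp5d was at 6.32 FPKM in SIRPα-KO and 14.3 FPKM in WT. Ptpn6, the gene of SHP-1, was neither, at 279 FPKM in SIRPα-KO and 296 FPKM in WT.

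**Figure D4:**
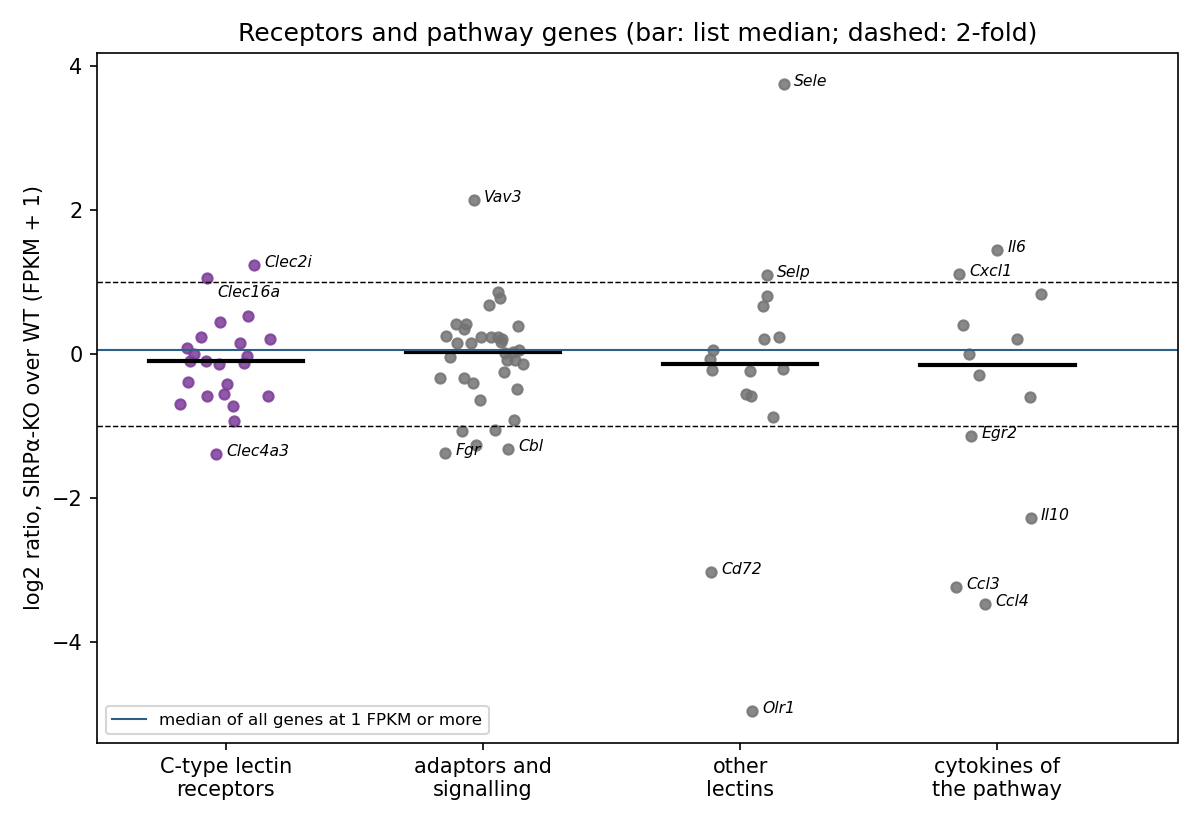
Log2 ratios of SIRPα-KO over WT (FPKM + 1) for genes at 1 FPKM or more in 4 lists, with a bar at each list's median and the median of all genes kept as a blue line. The C-type lectin receptors lie between -1.40 and 1.24. The lists were chosen with earlier results of these data known, so their spreads are not compared.

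Log2 ratios of lectins outside the family criteria ran from -4.96 to 3.75. The list was chosen with earlier results of these data known, so its spread cannot be set against that of the family. Over all genes kept, 3.43% were higher and 4.30% lower, the shares to set beside the counts of this list and the next. Of 23 lectins counted here, 19 were in the tables and 16 reached 1 FPKM, with 2 higher, 2 lower and a median log2 ratio of -0.14. The higher ones were Sele and Selp, which encode adhesion molecules that bind carbohydrates, with log2 ratios of 3.75 and 1.09. The lower ones were Olr1 and Cd72, an inhibitory lectin-like receptor that was at 21.6 FPKM in SIRPα-KO and 184 FPKM in WT. Mrc1, the macrophage mannose receptor, was at 50.9 FPKM in SIRPα-KO and 58.8 FPKM in WT. Of 16 listed cytokines and other genes that these receptors can induce, 12 reached 1 FPKM, with 2 higher (Il6 and Cxcl1) and 4 lower (Ccl3, Ccl4, Il10 and Egr2). Their median log2 ratio was -0.15, and many of them also respond to lipopolysaccharide, which both cultures received.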

How the data were processed

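RNA sequencing libraries, 1 per genotype, were made with BGI protocols from total RNA, per the labels. The authors deposited 1 value per gene and library, taken here to be FPKM, which is normalised to transcript length and library size. The files name no unit, and FPKM was inferred because the values are not whole, sum differently in both libraries and change in steps that scale with transcript length. The submitters' processing notes name mm9, R 3.3.3 and DESeq2 without roles. How reads were aligned and counted, and whether by strand, is not given in the sources used here. Such values depend on how reads shared by related genes were assigned, so shared 50-base words were counted between GENCODE M21 transcripts.

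Reads per gene were approximated from FPKM, transcript length and a depth estimated from low values: 59.7% of 1569 SIRPα-KO values and 59.7% of 1596 WT values lay within 0.15 of a whole read, against 30.3% and 28.5% with lengths shuffled. Whole reads were therefore not recovered and no count test was run. For a gene with several listed transcripts the mean of their lengths was used. The shortest transcript had 0.42 times the length of the longest for Clec1b and 0.63 times for Klra2. The read numbers of these genes are therefore less certain.

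Genes at 1 FPKM or more in either library were kept, the ratio was taken as the difference of log2(FPKM + 1), and no p-value was computed. The calculation was tested on simulated data with read-sampling noise alone and changes well past 2-fold planted in genes at 5 FPKM or more. No changes near 2-fold or at lower levels were planted, and no variation between cultures was simulated. The simulation therefore does not address the calls of single members. The members and the gene lists were chosen with earlier results of these data known. Every member at 1 FPKM or more is named, and from each pathway list up to 8 called genes, plus Syk, Card9, Fcer1g and Tyrobp. Klrd1, Klrb1c, Klri2, Xist, Ddx3y, Cd207, C3ar1, BC035044, Cd69, Mrc1, Hcst, Bcl10, Malt1, Ptpn6, Cebpb and Cebpd, and the cell type markers given with values, were named after their values were seen. A gene of the list of other lectins is not reported here and was left out of its counts. Alternatives were a pseudocount of 0.1 or 5, no filter or a minimum of 5 FPKM, fold limits of 1.5 and 3, and median-of-ratios or trimmed-mean scaling. Analyses used Python 3.11.15 with pandas 2.3.3.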

Additional observations from a re-analysis of the deposited data

How the results depend on the processing

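The count of 2 higher C-type lectin receptor genes became 1 with median-of-ratios scaling, with trimmed-mean scaling and with a minimum of 5 FPKM, and 0 with a pseudocount of 5 or a limit of 3-fold. The count of 1 lower gene became 2 with either scaling (Clec4a3 and Clec4e) and with a pseudocount of 0.1 (Clec4a3 and Ly75), 4 with a limit of 1.5-fold (Clec4a3, Clec4e, Clec5a and Ly75), and 0 with a limit of 3-fold. At 1.5-fold, 10.9% of all genes kept were higher and 10.2% lower, and at 3-fold 1.29% and 1.39%. With a pseudocount of 0.1 these shares were 5.84% and 6.70%, and with a pseudocount of 5 they were 1.46% and 1.85%. With median-of-ratios scaling the shares were 2.98% higher and 4.78% lower, and with trimmed-mean scaling about 3% and 4.74%. A minimum of 5 FPKM kept 15 C-type lectin receptor genes and 6474 genes in all, of which 3.75% were higher and 4.91% lower. For the adaptor and signalling list the count of 1 higher became 4 at 1.5-fold and 2 with a pseudocount of 0.1, and the count of 5 lower became 2 with a pseudocount of 5 and 0 at 3-fold. No called member could change sign under these alternatives, because a pseudocount, filter or fold limit keeps the sign of a ratio. The scalings multiplied SIRPα-KO values by 0.95 or 0.954, too little to reverse a 2-fold difference. By the same arithmetic, with either scaling every log2 ratio of the 23 named members moved by less than 0.1. The median of all genes moved by 0.06. No paired analysis was possible because each genotype has 1 library, and no library could be left out for the same reason. Depth limits the genes with few reads, among them Clec2i, Clec1b, Clec4b1 and Klra2.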

Other observations

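Langerin, the lectin encoded by Cd207 next to Clec4f on chromosome 6, was at 0.83 FPKM in SIRPα-KO and 1.40 FPKM in WT. The 7 genes at 1 FPKM or more with C/EBP letters had log2 ratios above 0 for Clec16a and Klrk1 and below 0 for Clec4e and the rest. The sign for Klra3, which reached 1 FPKM in WT alone, follows from the filter. Over all 23 genes at 1 FPKM or more the ratio was below 0 for 15. Of C/EBP factor genes only Cebpb and Cebpd were looked at. Cebpb was at 41.7 FPKM in SIRPα-KO and 126 FPKM in WT, and Cebpd was at 10.9 FPKM in SIRPα-KO and 5.42 FPKM in WT. No relation between these values and any of the 7 genes was tested.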
